A study of Mus musculus with 22 samples.

Results

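Cell division uses cyclins, kinases, and genes of DNA replication and mitosis. Here 41 such genes were followed in pancreatic β-cells, the insulin-secreting cells of the islet. They were taken by name as a list of cell cycle and proliferation genes, and all 41 were found among the 52327 genes of the count table and were among the 14064 genes with enough counts to test. By role they comprise 5 genes of the D cyclins and their kinases, 4 genes of the next step into DNA synthesis, 10 genes of DNA replication and nucleotide supply, and 22 genes of mitosis. The 22 mitotic genes comprise 8 cyclins, kinases and a transcription factor of the G2/M transition, 5 checkpoint and degradation genes, 4 centromere proteins and 5 spindle, chromosome and proliferation-marker genes.

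RNA was sequenced from β-cells sorted by flow cytometry, with 1 mouse per library and 22 mice in 4 groups. The groups were refed DT mice (n = 6), refed control mice (n = 5), fasted DT mice (n = 6) and fasted control mice (n = 5). Every mouse, controls included, was a male 3 months old on a mixed background and carried the alleles GluDTR+, SstDTR htz and PpyDTR htz, in which the diphtheria toxin receptor is tied to the hormone genes of the α-, δ- and γ-cells. DT mice were taken 1 month after ablation with diphtheria toxin, and what the control mice were given is not given in the sources used here. Fasted mice had gone 8 h without food, and refed mice had the same fast followed by 2 h of feeding.

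In the textbook account of the cell cycle, D cyclins with Cdk4 or Cdk6 and E cyclins with Cdk2 phosphorylate the retinoblastoma protein, which releases E2F factors to switch on replication genes. Later, Foxm1 and B-Myb act with the MuvB complex at CHR elements in the promoters of mitotic genes, whose RNAs peak in G2 and M phase. Adult β-cells divide rarely, Ccnd2 is the main D cyclin for their growth after birth in mice, and mice without Cdk4 have too few β-cells.

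Total counts ran from 16584117 to 24988880 per library. After scaling of the library sizes 1 count was worth 0.0401 to 0.0913 CPM, the highest in refed DT mouse 13, whose scaling factor was 0.567. All 10 β-cell markers were present in every group, and insulin transcripts made up 40.3% to 69.4% of counts. Gcg, the glucagon gene of α-cells, was at 0 to 25.9 CPM in refed DT mice and 56.0 to 172 CPM in refed control mice. It was at 0.0529 to 0.832 CPM in fasted DT mice and 1.279 to 241 CPM in fasted control mice. Of the 2 tested α-cell markers, 1 was below 0 and 1 above 0 between DT and control mice in each state. Ppy, the hormone gene of γ-cells, overlapped between DT and control mice. It was at 3.45 to 32.6 CPM in refed DT and 3.89 to 126 CPM in refed control mice. Its levels were 1.04 to 10.6 CPM in fasted DT and 5.41 to 46.6 CPM in fasted control mice. A pair of refed DT libraries stood apart. Mouse 13 had the highest insulin share, 69.4%, and the fewest genes detected, 15863, against 17447 to 19284 in the other libraries. Mouse 20 had the highest summed level of 16 immune markers, 569 CPM, and a mitochondrial share of 1.59%. Counts of called members and some single results are given with and without these libraries.

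The stretches just upstream of gene starts are shown first, since mitotic genes are known for short repeated promoter elements and the largest group of members moved together. The RefSeq table (GRCm38.p6) holds 300-base windows, from 250 bases before the start to 50 after it, for 33 of the 41 members. Ccnd1, Ccnd2, Ccna2, Ccne2, Foxm1, Mcm4, Tpx2 and Aurkb are named only. The first 5 sequences belong to genes that fell with refeeding and have a CHR match in the printed stretch, and Ccnd3, at the downstream of its RefSeq starts, and Cenps are shown for contrast. Each is the 150 bases before the start, 5′ to 3′ on the gene's own strand, with capitals marking matches on either strand, overlaps allowed. The CHR letters searched were TTTGAA, and the CCAAT box was searched as its name spells it. For E2F, TTTCCCG and TTTGGCG were searched, and so were the spellings TTTCGCG and TTTGCCG.
Cdk1 (chr10:69352913-69353062, minus strand): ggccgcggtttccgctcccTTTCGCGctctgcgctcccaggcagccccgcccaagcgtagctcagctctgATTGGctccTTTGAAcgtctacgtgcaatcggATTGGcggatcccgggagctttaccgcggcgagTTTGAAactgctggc
Top2a (chr11:99024190-99024339, minus strand): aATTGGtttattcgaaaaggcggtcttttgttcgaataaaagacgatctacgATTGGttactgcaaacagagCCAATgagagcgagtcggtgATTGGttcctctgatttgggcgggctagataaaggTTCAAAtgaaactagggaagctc
Mki67 (chr7:135716380-135716529, minus strand): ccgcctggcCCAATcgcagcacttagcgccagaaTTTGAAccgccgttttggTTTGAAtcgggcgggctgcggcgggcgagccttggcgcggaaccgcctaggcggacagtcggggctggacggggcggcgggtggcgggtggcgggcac
Kif11 (chr19:37376232-37376381, plus strand): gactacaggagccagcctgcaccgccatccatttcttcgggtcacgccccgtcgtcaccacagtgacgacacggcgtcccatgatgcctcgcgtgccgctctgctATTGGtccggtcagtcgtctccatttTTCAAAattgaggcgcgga
Cdc20 (chr4:118437344-118437493, minus strand): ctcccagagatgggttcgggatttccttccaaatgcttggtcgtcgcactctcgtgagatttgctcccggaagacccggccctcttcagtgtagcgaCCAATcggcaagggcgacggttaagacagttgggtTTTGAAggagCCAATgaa
Ccnd3 (chr17:47593317-47593466, plus strand): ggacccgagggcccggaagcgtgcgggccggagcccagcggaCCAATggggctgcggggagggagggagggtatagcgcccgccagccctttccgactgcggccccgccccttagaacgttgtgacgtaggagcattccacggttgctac
Cenps (chr4:149137601-149137750, minus strand): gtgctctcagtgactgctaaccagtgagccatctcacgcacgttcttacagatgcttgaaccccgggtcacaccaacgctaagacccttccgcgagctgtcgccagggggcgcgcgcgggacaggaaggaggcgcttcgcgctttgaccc

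The Cdk1 stretch holds both CHR and CCAAT letters and an E2F match, the Mki67 stretch holds a pair of CHR matches, and the Cenps stretch holds no match, its window holding an E2F match after the start. Over the whole windows, CHR was found for 13 of 33 members (39.4%) and for 20.2% of the 27025 genes in the table. CCAAT was found for 25 of 33 members (75.8%) and for 41.1% of all genes, and an E2F match for 9 of 33 (27.3%) and for 7.65% of all genes. Among the 17 members with a window that fell with refeeding on average, 10 held CHR, 14 CCAAT and 6 an E2F match. The windows of Aurka, Plk1 and Ube2c held CHR too, and these genes did not pass on average. Nusap1 and Birc5 fell, and their windows held neither CHR nor CCAAT. These are matches of letters, not measured binding, and the Mki67 stretch precedes a start inside the outer bounds of the gene.

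Levels of the members differed widely. Group means below are followed by the SD (n = 6 for each DT group, n = 5 for each control group) and fitted log2 fold changes by the SE. Divided by the length of the merged exons (GENCODE M21), Ccnd2 had the highest mean level, 89.0 CPM per kb, followed by Cdk4 at 36.2 CPM per kb, Ccnd1 at 10.9 CPM per kb and Pcna at 8.35 CPM per kb. At the other end, Mki67 had 0.170 CPM per kb, Bub1 0.107 CPM per kb and Cdk6 0.0284 CPM per kb. Ccnd2 alone made up 62.5% to 80.8% of the members' counts, and the members together 0.097% to 0.145% of a library's counts. A mean under 5 CPM was found for 30 members, and 26 members had under 10 counts in at least 1 library. In sorted bulk RNA a level this low cannot tell a few cells with many transcripts from many cells with few, so fewer cells of a type and less RNA per cell cannot be told apart.

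**Figure D1:**
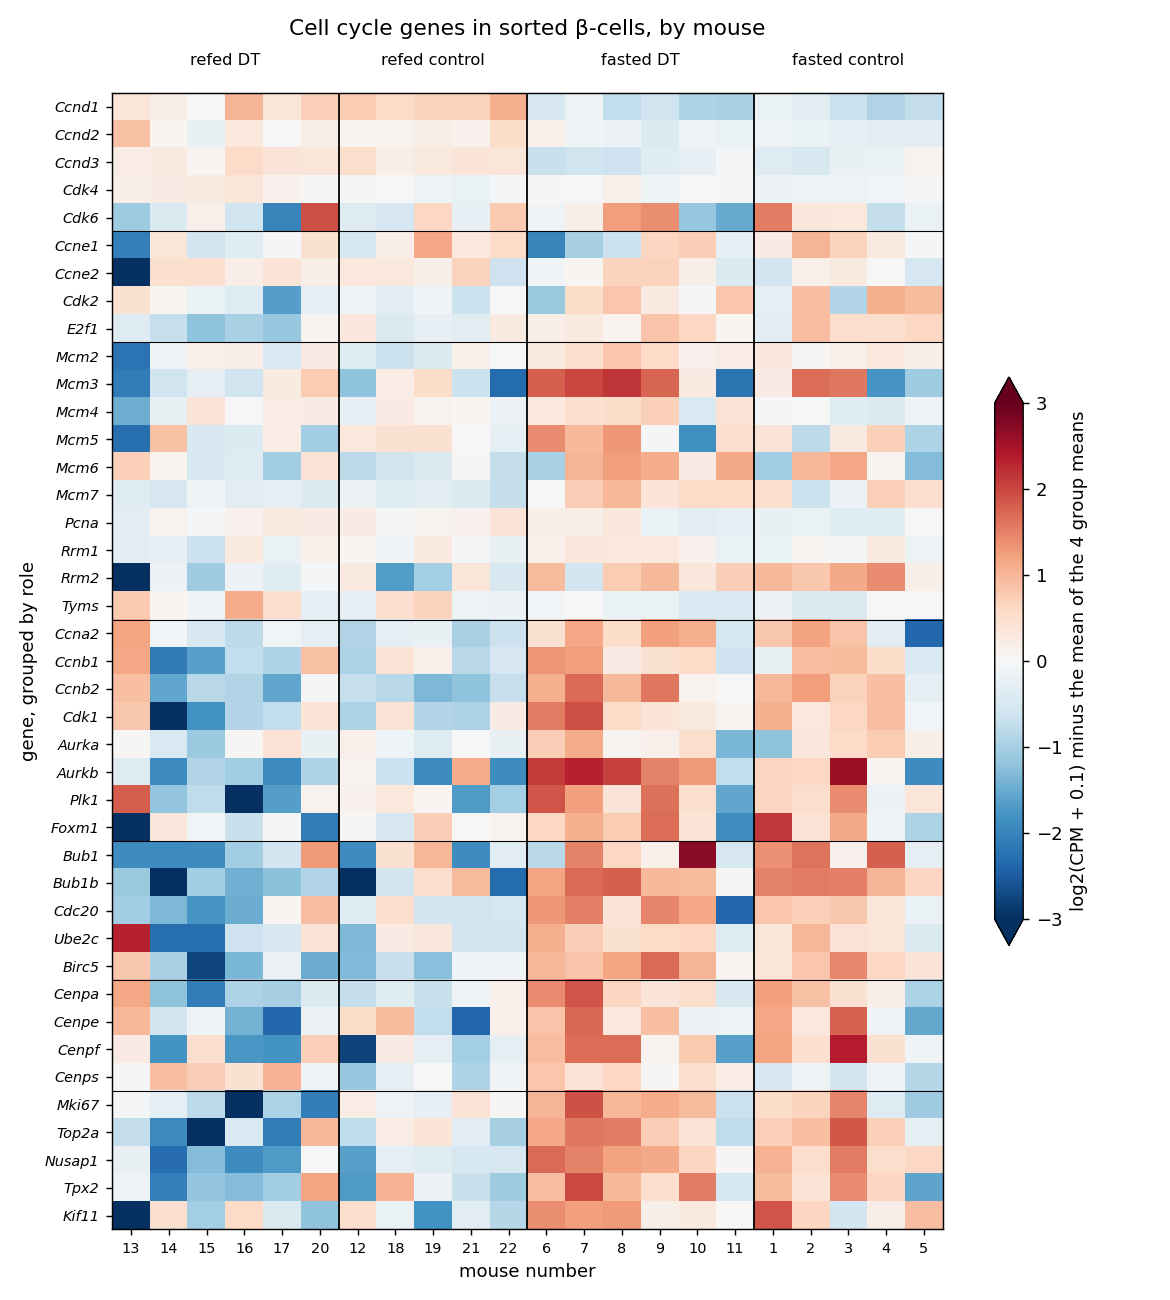
Heat map of the 41 members (rows, by role) in the 22 libraries (columns, by group and mouse), coloured by log2(CPM + 0.1) minus the mean of the 4 group means, from -3 to 3. The mitotic rows are mostly below their mean in refed mice, and the D cyclin rows are above it.

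Refeeding separated the D cyclins from the mitotic genes. Averaged over DT and control mice, 24 of 41 members (58.5%) passed the test between refed and fasted mice, against 38.9% of all tested genes. D cyclin and Tyms transcripts rose, 4 members (9.76%, against 17.2% of all genes higher), and 20 members fell (48.8%, against 21.7% of all genes lower). The share that fell was thus above the background and the share that rose below it. The median log2 fold change of the members was -0.80, against -0.06 over all tested genes.

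Within DT mice 15 members (36.6%) passed between refed and fasted mice, against 24.4% of all genes, with 4 higher (9.76%, against 10.8%) and 11 lower (26.8%, against 13.5%). Within control mice 6 members (14.6%) passed, against 23.3% of all genes, with 3 higher (7.32%, against 10.9%) and 3 lower (7.32%, against 12.3%). Ccnd1, Ccnd3, Ccnb2, Nusap1 and Mcm7 passed in both, each with the same sign. The median log2 fold change of the members was -0.94 in DT mice, against -0.06 over all genes, and -0.74 in control mice, against -0.04. Tests were edgeR's quasi-likelihood test with Benjamini-Hochberg adjustment over all tested genes. Without refed DT mice 13 and 20, 30 members passed on average, 21 in DT mice and 9 in control mice, where 43.7%, 29.4% and 30.3% of all genes tested in that fit passed.

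**Figure D2:**
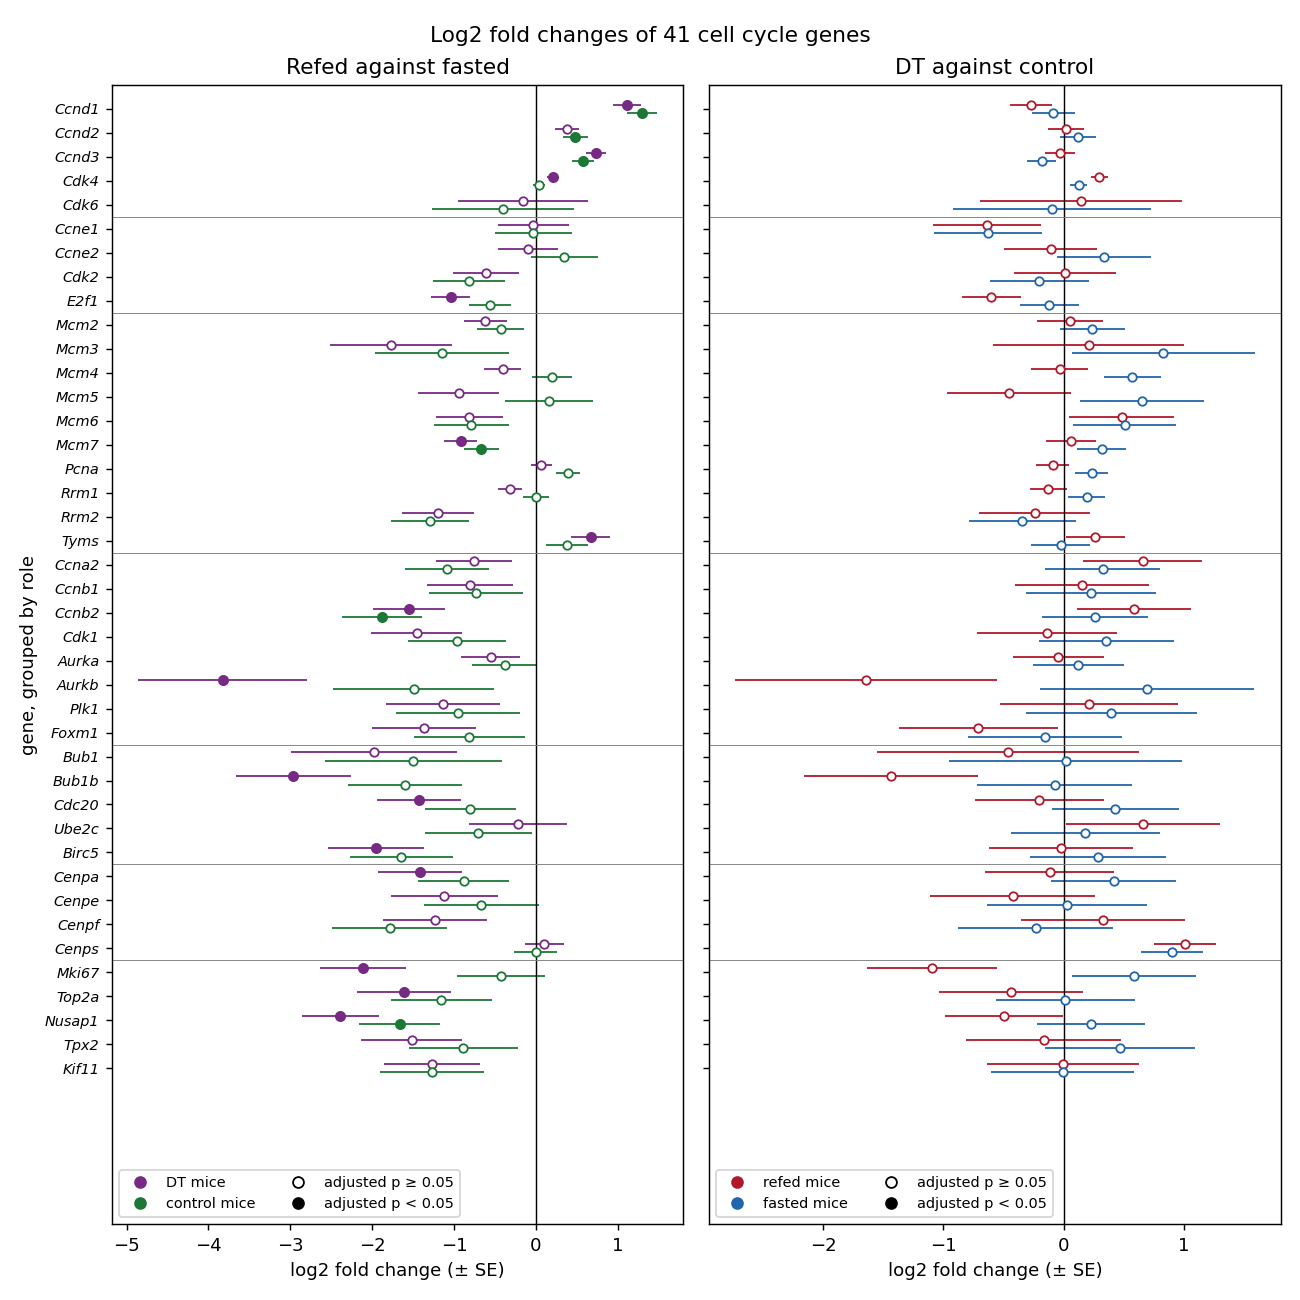
Fitted log2 fold changes with their standard errors for the 41 members: refed against fasted mice in DT and in control mice (left), and DT against control mice in the refed and in the fasted state (right). Filled points passed at an adjusted p below 0.05, and all filled points lie in the left panel: 15 for DT mice and 6 for control mice.

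The 3 D cyclins rose with refeeding. Ccnd1, the cyclin that links growth signals to the cell cycle (chromosome 7, 144929931 to 144939831, minus strand, GRCm38.p6), had a lowest, median and highest level of 46.8, 59.9 and 94.5 CPM in refed DT mice, and levels of 78.7, 69.6, 73.4, 73.6 and 97.4 CPM in refed control mice. It had 23.5, 28.97 and 41.9 CPM (lowest, median, highest) in fasted DT mice and 40.5, 37.2, 29.5, 24.6 and 28.4 CPM in fasted control mice. Every refed mouse was above every fasted mouse. The log2 fold change was 1.11 ± 0.17 (SE) in DT mice, adjusted p = 8.74e-05, and 1.29 ± 0.19 in control mice, adjusted p = 4.97e-05. Of all tested genes, 2.07% were higher in all refed than in all fasted mice. Opposite-strand exons of LTO1 overlap 23.4% of its exon bases.

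Ccnd3 (chromosome 17, 47505051 to 47599689, plus strand), which shares the kinase partners of Ccnd1, had 41.9, 49.7 and 59.4 CPM (lowest, median, highest) in refed DT mice and 57.3, 44.7, 48.9, 51.7 and 51.4 CPM in refed control mice. It had 25.2, 28.6 and 37.9 CPM in fasted DT mice, given the same way, and 30.3, 28.6, 33.9, 34.5 and 43.1 CPM in fasted control mice. Refed and fasted mice did not overlap within DT mice or within control mice, and across the arms the lowest refed DT mouse was below the highest fasted control mouse. Its log2 fold change was 0.73 ± 0.12 in DT mice (adjusted p = 0.000141) and 0.57 ± 0.13 in control mice (adjusted p = 0.00269).

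Ccnd2, the most abundant member (chromosome 6, 127125162 to 127152188, minus strand), had 698, 891 and 1498 CPM (lowest, median, highest) in refed DT mice, and 853, 882, 933, 902 and 1200 CPM in the 5 refed control mice. The fasted DT mice had 609, 739 and 910.5 CPM and the fasted control mice 746, 709, 678, 643 and 645 CPM. The refed control mice were all above the fasted control mice, while refed and fasted DT mice overlapped. Its fitted log2 difference was 0.38 ± 0.14 in DT mice (adjusted p = 0.0559) and 0.48 ± 0.16 in control mice (adjusted p = 0.0290), so that it passed in control mice, and the difference between the arms did not pass (interaction -0.10 ± 0.21, adjusted p = 0.981). The call in control mice was lost without fasted control mouse 3, 4 or 5 or refed control mouse 22, with values of 0.38 to 0.52 over the 22 fits that left out 1 mouse each. It was also lost with the acinar marker sum as a covariate. In DT mice, 4.0% of all tested genes had all refed mice above all fasted mice, and in control mice 10.4% did.

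**Figure D3:**
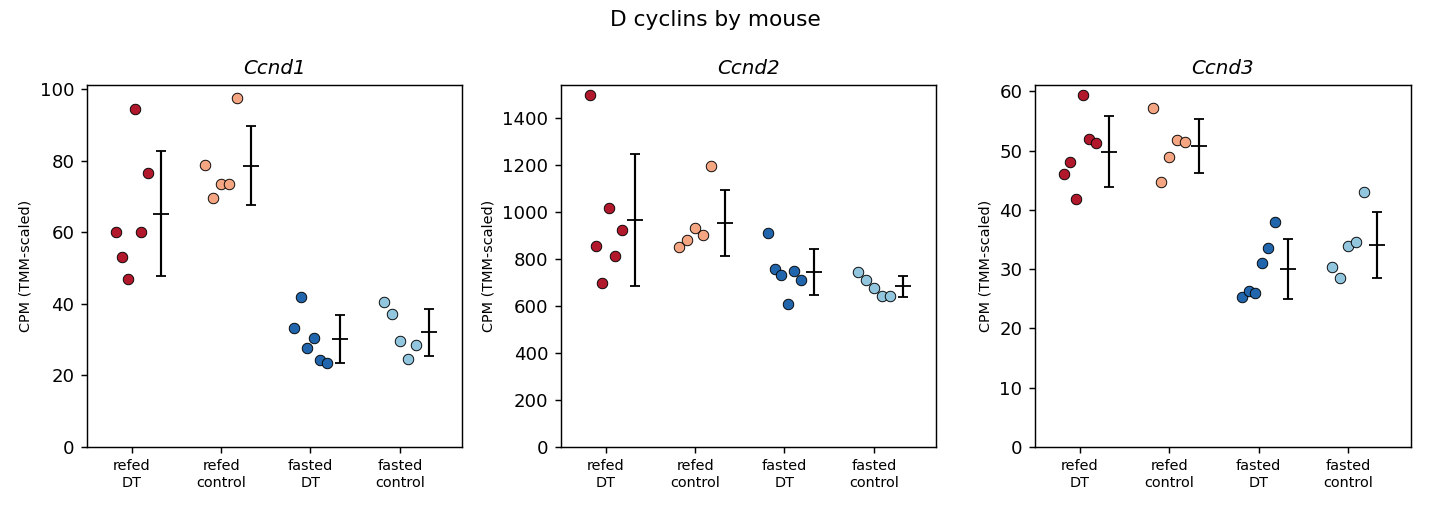
Levels of Ccnd1, Ccnd2 and Ccnd3 in CPM for each mouse (points), with the group mean and SD (bars), in refed DT, refed control, fasted DT and fasted control mice. All refed mice lie above all fasted mice for Ccnd1, and for Ccnd2 the highest point is refed DT mouse 13.

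The kinases of the D cyclins gave smaller differences. Cdk4 (chromosome 10, 127063535 to 127067288, plus strand) averaged 135 ± 10.7 CPM in refed DT mice and 117 ± 7.49 CPM in fasted DT mice (SD, n = 6 each). It averaged 110.1 ± 5.91 CPM in refed control mice and 108 ± 4.16 CPM in fasted control mice (SD, n = 5 each). The log2 fold change of refeeding was 0.20 ± 0.07 in DT mice (edgeR adjusted p = 0.0285) and 0.03 ± 0.07 in control mice (adjusted p = 0.782). The call in DT mice was lost without fasted DT mouse 9 or 11 or refed DT mouse 14, 15 or 16, with values of 0.17 to 0.28. It was also lost without the filter on low counts, with the acinar or immune marker sum as a covariate, and with only the 2 groups fitted. Cdk6, which stands in for Cdk4 in many tissues, had 0 to 30 counts in refed DT mice, 4 to 11 in refed control mice, 1 to 21 in fasted DT mice and 3 to 22 in fasted control mice. Its average log2 fold change was -0.28 ± 0.59 and did not pass.

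Among the 4 genes of the next step, E2f1 fell on average (25.0%, near the 21.7% of all genes) and the others did not pass. E2f1, an activating E2F factor that switches on replication genes (chromosome 2, 154559400 to 154569892, minus strand), had 4.69, 6.16 and 11.6 CPM (lowest, median, highest) in refed DT mice and 13.9, 8.04, 9.16, 8.62 and 13.1 CPM in refed control mice. It had 11.4, 13.1 and 19.8 CPM in fasted DT mice and 8.62, 20.9, 15.8, 15.8 and 16.8 CPM in fasted control mice. Most refed DT mice were below every mouse of the other groups, and refed and fasted mice overlapped in both arms. On the log2 scale the difference was -1.04 ± 0.24 in DT mice (adjusted p = 0.00281), -0.56 ± 0.26 in control mice (adjusted p = 0.122) and -0.80 ± 0.17 on average (adjusted p = 0.000930). On average over both arms Ccne1, Ccne2 and Cdk2 had log2 fold changes of -0.03 ± 0.32, 0.12 ± 0.27 and -0.71 ± 0.30, none past the test.

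Of the 10 genes of DNA replication and nucleotide supply, 5 fell and 1 rose on average. Mcm7, a subunit of the MCM2-7 helicase that unwinds DNA at the fork (chromosome 5, 138164583 to 138172111, minus strand), had 5.58, 6.16 and 7.33 CPM (lowest, median, highest) in refed DT mice and 7.01, 6.04, 6.20, 5.89 and 4.79 CPM in refed control mice. It had 7.85, 11.9 and 15.9 CPM in fasted DT mice and 11.3, 5.001, 7.002, 13.01 and 11.2 CPM in fasted control mice. The DT mice did not overlap between states, while the control mice did. The fitted log2 difference was -0.92 ± 0.20 in DT mice (adjusted p = 0.00175) and -0.67 ± 0.22 in control mice (adjusted p = 0.0282). The call in control mice was lost without fasted control mouse 1, 4 or 5 or refed control mouse 18, 21 or 22, with values of -0.82 to -0.50. It was also lost without the filter on low counts, with limma voom, and with only the 2 groups fitted. Mcm7 reads may also come from other genes. A near-identical copy, Gm5487, matches 2157 of the Mcm7 bases at 97.7%, and opposite-strand exons of Ap4m1 overlap 7.25% of the exon bases, so the reads are less certain.

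Rrm2, the ribonucleotide reductase subunit that is limiting for dNTP supply, averaged 1.71 ± 0.913 CPM in refed DT mice and 3.98 ± 1.28 CPM in fasted DT mice (SD, n = 6 each). In control mice it averaged 2.05 ± 1.17 CPM refed and 5.05 ± 1.49 CPM fasted (SD, n = 5 each). Its average log2 fold change was -1.25 ± 0.32 (edgeR adjusted p = 0.00416). Other MCM helicase subunits fell by less certain amounts: -0.52 ± 0.19 for Mcm2, -1.46 ± 0.55 for Mcm3 and -0.80 ± 0.31 for Mcm6, with adjusted p of 0.0346, 0.0406 and 0.0432. Of the 22 fits that left out 1 mouse, 8, 13 and 15 lost these calls.

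Tyms, the thymidylate synthase that makes dTMP, was the only replication member to rise with every library included. It averaged 5.19 ± 2.06 CPM in refed DT mice and 3.26 ± 0.432 CPM in fasted DT mice, and 4.31 ± 1.36 CPM in refed control mice and 3.31 ± 0.510 CPM in fasted control mice. The average log2 fold change was 0.52 ± 0.17 (edgeR adjusted p = 0.0206), lost without refed control mouse 19 at an adjusted p of 0.0507. In DT mice alone it was 0.67 ± 0.24 (adjusted p = 0.0420), and this call was lost in 7 of 22 fits. The call in DT mice was also lost without the filter on low counts, with limma voom, with either marker covariate, and with only the 2 groups fitted. Pcna, the sliding clamp of the replication fork, had 0.07 ± 0.13 in DT mice and 0.39 ± 0.14 in control mice, with adjusted p of 0.762 and 0.0517. It passed without refed DT mice 13 and 20 on average (0.30, adjusted p = 0.0163) and in control mice (0.43, adjusted p = 0.0230). Near-identical stretches lie in Pcna-ps2 for Pcna (781 bases at 99.2%) and, among others, in Jakmip2 for Tyms (360 bases at 97.5%). The reads of Pcna and Tyms are thus less certain. Mcm4 and Mcm5 of the helicase and Rrm1, the large reductase subunit, did not pass in any comparison.

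All 8 G2/M members had a negative log2 fold change with refeeding in both arms, and 4 passed on average. Ccnb2, a B-type cyclin that partners Cdk1 at mitotic entry (chromosome 9, 70407689 to 70421554, minus strand), had 0.345, 0.620 and 2.37 CPM (lowest, median, highest) in refed DT mice and 0.718, 0.636, 0.416, 0.471 and 0.712 CPM in refed control mice. It had 1.21, 2.58 and 4.16 CPM in fasted DT mice and 2.50, 3.02, 2.04, 2.37 and 0.999 CPM in fasted control mice. All refed control mice were below all fasted control mice, as for 11.1% of all tested genes, while DT mice overlapped. The log2 fold change was -1.55 ± 0.44 in DT mice (adjusted p = 0.0128) and -1.88 ± 0.49 in control mice (adjusted p = 0.00744). No fit that left out 1 mouse lost these calls, but the call in DT mice was lost with only the 2 groups fitted (-1.55, adjusted p = 0.0525).

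Cdk1, the mitotic kinase whose upstream stretch is printed above, averaged 1.22 ± 1.10 CPM in refed DT mice and 3.30 ± 1.94 CPM in fasted DT mice. In control mice it averaged 1.32 ± 0.703 CPM refed and 2.57 ± 0.806 CPM fasted, and the average log2 fold change was -1.21 ± 0.41 (edgeR adjusted p = 0.0222). With the immune marker sum as a covariate this call was lost (-0.91, adjusted p = 0.0728). Aurkb, the kinase of the chromosomal passenger complex, had 0 to 2 counts in refed DT mice, 0 to 15 in refed control mice, 3 to 29 in fasted DT mice and 0 to 47 in fasted control mice. Its log2 fold change in DT mice was -3.83 ± 1.03 (adjusted p = 0.00952), a size that depends on the prior count because every refed DT library had fewer than 3 counts. Ccna2, cyclin A2, had -0.92 ± 0.34 on average (adjusted p = 0.0379), lost in 14 of 22 fits.

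The other G2/M members did not pass on average. Ccnb1 had -0.77 ± 0.39, the kinase Aurka -0.47 ± 0.27, the polo-like kinase Plk1 -1.05 ± 0.51 and Foxm1, an activator of mitotic genes, -1.09 ± 0.47. Ccnb1 has near-identical copies, one of which, Ccnb1-ps, matches at 99.2%, so its reads can be split between loci. Without refed DT mice 13 and 20, Ccnb1 and Plk1 were also called lower on average and in DT mice.

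Of the 5 checkpoint and degradation members, 3 were called lower on average (60.0%, against 21.7% of all genes). Bub1b, which makes the spindle checkpoint kinase BubR1 (chromosome 2, 118598202 to 118641592, plus strand), had 0, 0.261 and 0.333 CPM (lowest, median, highest) in refed DT mice and 0, 0.454, 1.06, 1.46 and 0.0647 CPM in refed control mice. It had 0.727, 1.62 and 2.70 CPM in fasted DT mice and 2.17, 2.27, 2.22, 1.56 and 1.17 CPM in fasted control mice. In DT mice the highest refed mouse was below the lowest fasted mouse, as for 6.11% of all tested genes. Its fitted log2 difference was -2.96 ± 0.70 in DT mice (adjusted p = 0.00373) and -1.60 ± 0.70 in control mice (adjusted p = 0.105). Counts in refed DT mice were 0 to 7, so the size of the fall is loosely set.

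Birc5, the passenger complex protein survivin, averaged 0.357 ± 0.397 CPM in refed DT mice and 1.30 ± 0.490 CPM in fasted DT mice, and 0.342 ± 0.171 CPM in refed control mice and 1.07 ± 0.393 CPM in fasted control mice. Its log2 fold change was -1.95 ± 0.58 in DT mice (edgeR adjusted p = 0.0177) and -1.65 ± 0.63 in control mice (adjusted p = 0.0619), the DT call lost with only the 2 groups fitted (adjusted p = 0.0538). Cdc20, an activator of the anaphase-promoting complex, had -1.43 ± 0.51 in DT mice (adjusted p = 0.0455), a call lost in 17 of 22 fits, and -1.12 ± 0.38 on average (adjusted p = 0.0226), lost with limma voom (adjusted p = 0.0832). Bub1, a spindle checkpoint kinase, and Ube2c, the ubiquitin-conjugating enzyme of the anaphase-promoting complex, had -1.74 ± 0.74 and -0.46 ± 0.44 on average and did not pass. Leaving out refed DT mice 13 and 20, both were called lower, on average (-2.46 and -1.24) and in DT mice (-3.45 and -1.81).

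Of the 4 centromere members, Cenpa and Cenpf fell on average and Cenps moved with DT instead. Cenpa, the histone H3 variant of centromeres, had -1.15 ± 0.38 on average (adjusted p = 0.0185) and -1.42 ± 0.51 in DT mice (adjusted p = 0.0473), the DT call lost in 18 of 22 fits. With the immune marker covariate the average call was lost (-0.84, adjusted p = 0.0800). Cenpf, a kinetochore protein, had -1.51 ± 0.48 (adjusted p = 0.0149). Cenpe, a kinetochore motor, had -0.89 ± 0.48 and did not pass.

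All 5 spindle, chromosome and marker members fell on average, against 21.7% of all genes. Nusap1, a microtubule-bundling protein of the spindle (chromosome 2, 119618298 to 119650165, plus strand), had 0.0987, 0.245 and 0.855 CPM (lowest, median, highest) in refed DT mice and 0.211, 0.681, 0.648, 0.565 and 0.582 CPM in refed control mice. It had 0.889, 2.07 and 3 CPM in fasted DT mice and 1.88, 1.28, 2.75, 1.28 and 1.37 CPM in fasted control mice. Every refed mouse was below every fasted mouse, as for 2.56% of all tested genes. On the log2 scale the difference was -2.39 ± 0.47 in DT mice (adjusted p = 0.000797) and -1.67 ± 0.49 in control mice (adjusted p = 0.0169). The control call was lost without fasted control mouse 3, at an adjusted p of 0.0567.

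Mki67, which makes the Ki-67 protein used to mark dividing cells (chromosome 7, 135689784 to 135716450, minus strand), had 0.0806, 0.688 and 1.28 CPM (lowest, median, highest) in refed DT mice and 1.56, 1.18, 1.11, 1.84 and 1.36 CPM in refed control mice. It had 0.808, 2.77 and 5.23 CPM in fasted DT mice and 1.98, 2.15, 3.81, 0.994 and 0.583 CPM in fasted control mice. The refed DT mice were mostly low, while refed control mice lay within the range of fasted control mice. The fitted log2 difference was -2.11 ± 0.52 in DT mice (adjusted p = 0.00528) and -0.43 ± 0.54 in control mice (adjusted p = 0.619). Whether those differ is the interaction, -1.68 ± 0.75, with an edgeR adjusted p of 0.679 and an unadjusted p of 0.0347, so a difference between the arms did not pass.

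Top2a, the topoisomerase that disentangles sister chromatids, averaged 1.98 ± 2.24 CPM in refed DT mice and 6.11 ± 2.99 CPM in fasted DT mice, and 2.69 ± 1.15 CPM in refed control mice and 6.03 ± 3.30 CPM in fasted control mice. It had -1.39 ± 0.42 on average (edgeR adjusted p = 0.0123) and -1.61 ± 0.57 in DT mice (adjusted p = 0.0449), the DT call lost in 16 of 22 fits. Kif11, the kinesin that separates spindle poles, had -1.27 ± 0.43 on average (adjusted p = 0.0234), and the call was lost without fasted control mouse 1 (adjusted p = 0.0663) and with the immune marker covariate (adjusted p = 0.0721). Tpx2, a spindle assembly factor that activates Aurka, had -1.20 ± 0.45 (adjusted p = 0.0389), lost in 13 of 22 fits.

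**Figure D4:**
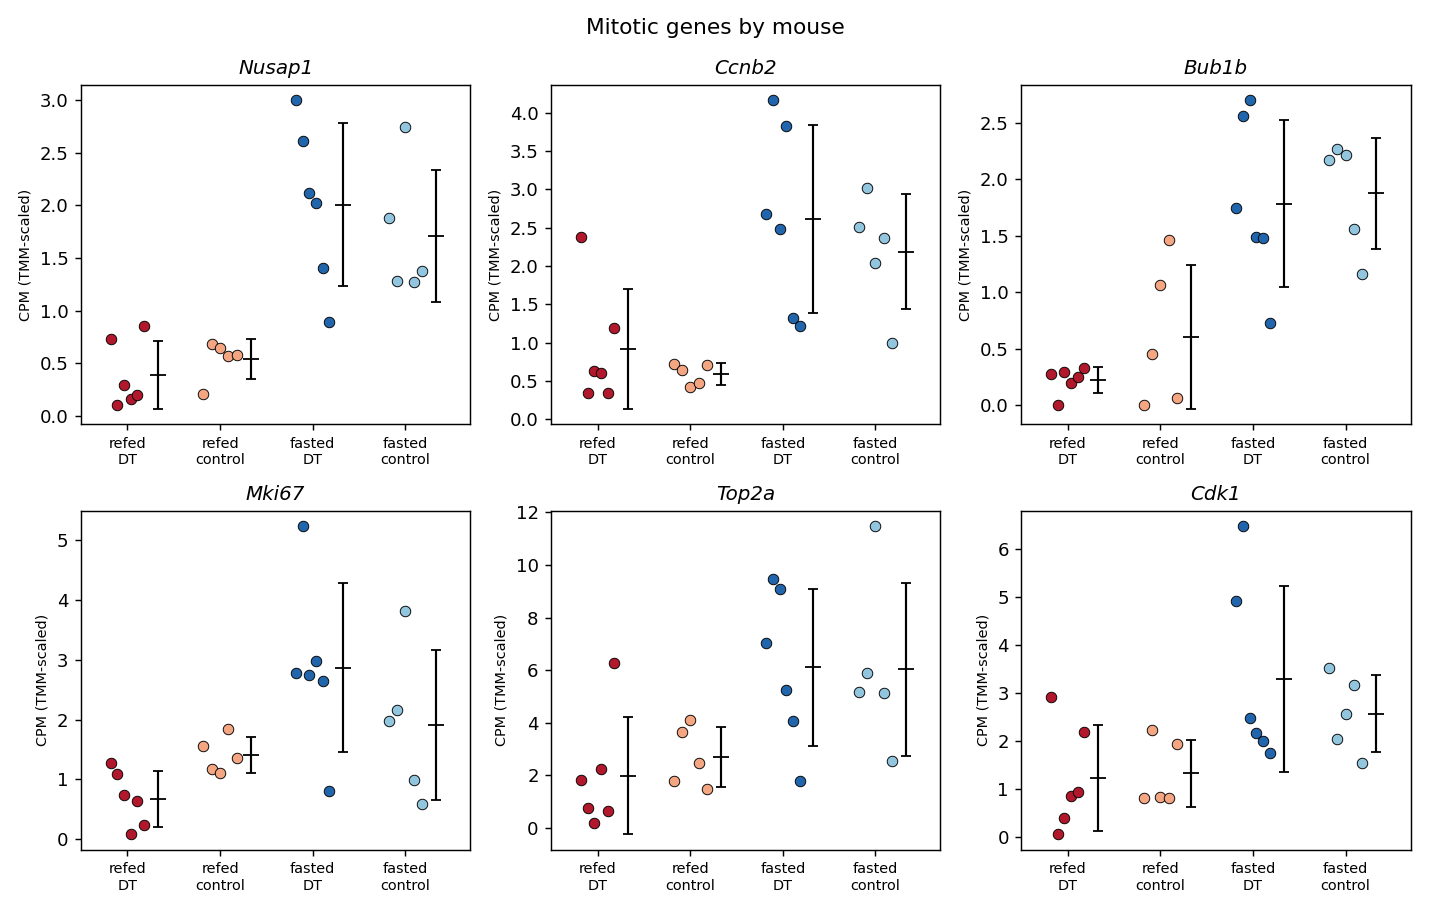
Levels of Nusap1, Ccnb2, Bub1b, Mki67, Top2a and Cdk1 in CPM for each mouse (points), with the group mean and SD (bars), in refed DT, refed control, fasted DT and fasted control mice. The fasted groups spread widely, and for Nusap1 all refed mice lie below all fasted mice.

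Taking the 21 mitotic members other than Cenps together, a list trimmed after its values were seen and so given no test, all 21 had a negative log2 fold change with refeeding in DT mice and in control mice. The medians were -1.43 in DT mice and -0.96 in control mice. Without refed DT mice 13 and 20 the median in DT mice was -2.27. In that fit 15 of the 21 genes were called, where 29.4% of all genes were. With every library 9 of the 21 genes were called, where 24.4% of all genes were. The summed level of the 21 members had a lowest, median and highest value of 11.96, 15.5 and 41.8 CPM in refed DT mice. In refed control mice it ran from 18.7 to 31.6 CPM. It ran from 17.01 to 84.2 CPM in fasted DT mice, with a median of 55.1 CPM, and from 23.0 to 68.7 CPM in fasted control mice, with a median of 49.2 CPM. The fasted groups thus held low mice too: fasted DT mouse 11 was the lowest of its group for 19 of the 21 genes, and fasted control mouse 5 for 16 of 21. Among refed DT mice, mouse 13 was the highest for 11 genes and mouse 20 for 7. Leaving both out therefore deepens the fall in DT mice by construction. No fit left out both of the low fasted mice.

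Markers of other cells differed between single libraries and between feeding states. The summed level of the 16 immune markers was 569 CPM in refed DT mouse 20, 508 CPM in fasted DT mouse 7, 268 CPM in fasted control mouse 1, 149 CPM in fasted DT mouse 6 and 26.4 to 80.4 CPM in the other libraries, and no marker of the list was at 0 in a whole group. The 10 acinar markers summed to 68.2 to 29210 CPM, also with none at 0 in a whole group. Refed against fasted on average, 11 of 14 tested immune markers were below 0 (median -0.60), with Cd79a called lower, and all 9 tested acinar markers were above 0 (median 1.18), with 0 called. Ppy, the γ-cell hormone gene, was called higher, by 1.52. With the log of the immune sum as a covariate, 17 members passed on average, 14 in DT mice and 7 in control mice, where 37.7%, 24.3% and 23.1% of all genes passed. The average calls of Mcm2, Mcm3, Mcm6, Ccna2, Cdk1, Cenpa, Tpx2 and Kif11 were lost. With the acinar sum 19, 13 and 5 members passed, where 35.4%, 21.98% and 21.3% of all genes did, and the average calls of Mcm2, Mcm3, Mcm6, Tyms and Tpx2 were lost. Beyond these fits, the part of these cells in the results was not tested.

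DT mice and control mice were compared to ask what differs in β-cells after the other endocrine cells are ablated. In the refed state 0 of 41 members passed, against 0.0356% of all tested genes (0.0213% higher and 0.0142% lower). In the fasted state 0 of 41 passed, against 0.0284% (0.0213% higher and 0.00711% lower). At an unadjusted p below 0.05 there were 3 members in the refed state (Cdk4, E2f1 and Cenps) and 2 in the fasted state (Mcm4 and Cenps). Of the 14064 tested genes, 1410 and 1172 were below that value, larger shares than among the members. DESeq2 called 2 members in the refed state and 0 in the fasted state, where it called 0.61% and 0.36% of all genes. The median log2 fold change of the members was -0.05 in the refed state, against 0.00 over all genes, and 0.22 in the fasted state, against 0.01. Averaged over feeding, 1 member of 41 passed (2.44%, against 0.206% of all genes).

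That member was Cenps, a histone-fold protein of the centromere that is also a partner of the Fanconi anaemia factor Fancm (chromosome 4, 149128349 to 149137600, minus strand). It had 3.66, 6.02 and 8.17 CPM (lowest, median, highest) in refed DT mice and 1.73, 3.27, 3.89, 2.02 and 3.69 CPM in refed control mice. It had 4.01, 5.46 and 7.09 CPM in fasted DT mice and 2.75, 3.55, 2.62, 3.60 and 2.12 CPM in fasted control mice. In the fasted state all DT mice were above all control mice, as for 1.1% of all tested genes, while in the refed state they overlapped. No member was lower in all DT than in all control mice of a state, as 0.768% of all genes were in fasted mice and 0.562% in refed mice. The log2 fold change was 1.01 ± 0.26 in refed mice and 0.90 ± 0.26 in fasted mice, with edgeR adjusted p of 0.168 and 0.304. Over both states it was 0.96 ± 0.18, with an adjusted p of 0.0333. Without refed DT mice 13 and 20 Cenps was called in the refed state, where 1.22% of all genes were. It was also called on average in that fit, where 0.86% of all genes were.

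The average Cenps call was lost in 10 of the 22 fits that left out 1 mouse, with values of 0.88 to 1.02 and a highest adjusted p of 0.0836. The mice whose omission ended it were refed DT mice 16 and 17, refed control mice 12 and 21, fasted DT mice 6, 8 and 10, and fasted control mice 1, 4 and 5. Refeeding left its fitted value at 0.05 ± 0.18. No exon of another gene overlaps Cenps. The nearest gene on the same strand, Cort, lies 358 bases away and was at 0 to 0.317 CPM in all libraries.

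Cdk4 was the only member whose refed DT and refed control mice did not overlap. It had 119, 137 and 150.4 CPM (lowest, median, highest) in refed DT mice and 112, 116, 108, 101 and 113 CPM in refed control mice. It had 108, 117 and 129.7 CPM in fasted DT mice and 103, 106, 105, 109.9 and 114 CPM in fasted control mice. All refed DT mice were above all refed control mice, as for 0.427% of all tested genes, while the fasted groups overlapped. The log2 fold change in the refed state was 0.30 ± 0.07, with an edgeR adjusted p of 0.168 and an unadjusted p of 0.000383. Without refed DT mice 13 and 20 it was 0.36 with an adjusted p of 0.0251, in a fit that called 1.22% of all genes. Cdk4 was also called on average over feeding in that fit, where 0.86% of all genes were. Opposite-strand exons of Tspan31 overlap 19.7% of its exon bases.

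**Figure D5:**
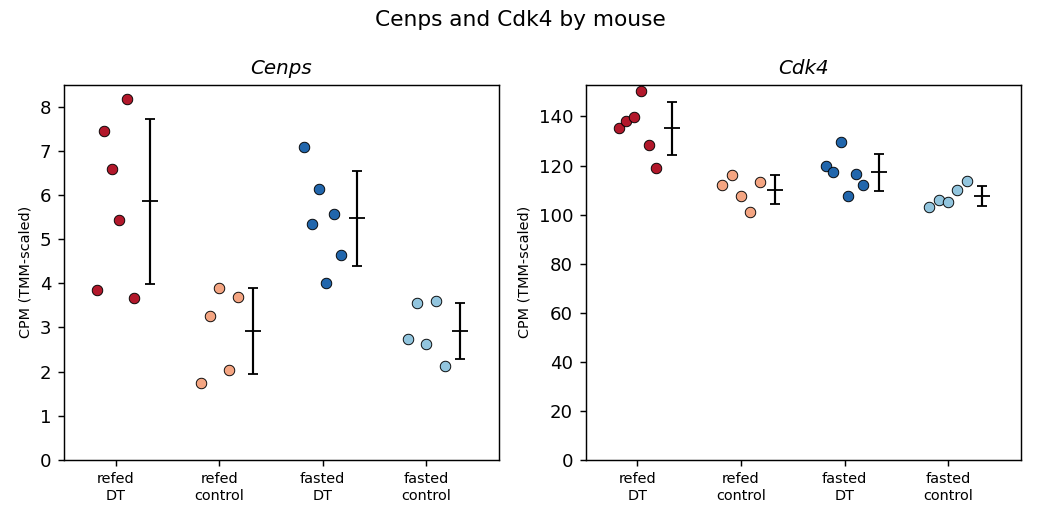
Levels of Cenps and Cdk4 in CPM for each mouse (points), with the group mean and SD (bars), in refed DT, refed control, fasted DT and fasted control mice. The Cenps mean is higher in DT mice in both states, with overlap in the refed state, and all refed DT mice lie above all refed control mice for Cdk4.

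Other members named at an unadjusted p below 0.05 gave -0.60 ± 0.25 for E2f1 between refed DT and refed control mice (edgeR adjusted p = 0.404) and 0.57 ± 0.24 for Mcm4 between fasted DT and fasted control mice (adjusted p = 0.519). Mki67 had -1.09 ± 0.54 in refed mice and 0.59 ± 0.52 in fasted mice, with adjusted p of 0.508 and 0.842.

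The interaction asks whether refeeding moved a gene more in DT than in control mice. It called 0 of 41 members, against 0.00711% of all tested genes, with a median log2 value of -0.25, against -0.02 over all genes. An unadjusted p below 0.05 was found for 1 of 41 members (Mki67) and for 1004 of the 14064 tested genes, a larger share. The absolute fold change of refeeding was larger in DT mice for 29 of 41 members. Without refed DT mice 13 and 20, the 21 mitotic members had a median of -1.33 for the interaction, against -0.45 with every library, 20 of 21 were below 0, and 0 passed. Between refed DT and refed control mice their median was then -1.10, against -0.14 with every library, again with 0 passing. Over every library, 15 of the 21 were below 0 in this comparison, and in the fasted state 4 were. Refed DT mice 13 and 20 were the highest of their group for most of these genes. Leaving them out therefore lowers the interaction and refed medians by construction.

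The rest of the cell cycle machinery was followed in 6 further gene lists, and none had a member that passed between DT and control mice in either state or on average. Of 45 tested mitosis genes, 2 rose (4.44%) and 24 fell (53.3%) with refeeding on average, against 17.2% and 21.7% of all genes, with a median of -0.94, against -0.06 over all genes. Ncapd2, a condensin subunit, averaged 3.82 ± 1.23 CPM in refed DT mice and 4.50 ± 0.697 CPM in refed control mice, against 13.3 ± 3.76 CPM in fasted DT mice and 11.04 ± 2.74 CPM in fasted control mice (SD). Its average log2 fold change was -1.55 ± 0.17 (edgeR adjusted p = 3.18e-07). Tacc3, a spindle microtubule protein, had -1.05 ± 0.15, and Kif22, a chromosome-binding kinesin, -1.17 ± 0.17.

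Of 27 tested genes of G1/S control, 5 rose (18.5%) and 8 fell (29.6%) on average, shares near those of all genes, 17.2% and 21.7%. Cks1b, a cyclin-kinase subunit used to degrade Cdkn1b, had 1.14 ± 0.19 and the phosphatase Cdc25a 0.73 ± 0.14, while the Cdk4 and Cdk6 inhibitors Cdkn2c and Cdkn2d had -1.10 ± 0.20 and -0.63 ± 0.12. Cdkn1a, the p21 inhibitor, averaged 19.9 ± 8.07 CPM in refed DT mice and 19.04 ± 6.64 CPM in fasted DT mice (SD, n = 6 each). It averaged 10.9 ± 4.46 CPM in refed control mice and 37.1 ± 11.4 CPM in fasted control mice (SD, n = 5 each), with a log2 fold change of -1.76 ± 0.31 (edgeR adjusted p = 0.000339). The interaction, 1.82 ± 0.41, had an adjusted p of 0.444 and an unadjusted p of 0.00024.

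Of 38 tested DNA replication genes, 5 rose and 5 fell on average (13.2% each), below the shares of all genes. Gins3, of the helicase-activating GINS complex, had 1.10 ± 0.17 and Fen1, the flap nuclease of Okazaki fragments, 0.92 ± 0.29. Pola2, of the primase complex, had -0.87 ± 0.22 and Chaf1b, a histone chaperone, -1.26 ± 0.35. Of 16 tested genes of the constitutive centromere network, the proteins that hold the centromere together with Cenps, 2 rose (12.5%) and 4 fell (25.0%), near the shares of all genes. Cenpx, the histone-fold partner of Cenps, had 0.30 ± 0.10 with refeeding, and like the rest of its list it did not pass between DT and control mice.

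Of 13 tested Fanconi anaemia genes, 2 rose (15.4%) and 4 fell (30.8%) with refeeding, near the shares of all genes. Fancm was among those that fell, at -0.37 ± 0.11. Of 14 tested regulators of β-cell replication, 2 rose (14.3%) and 4 fell (28.6%), again near those shares. Prlr, the prolactin receptor that drives β-cell expansion in pregnancy, had 0.69 ± 0.12 and Igf1r, the receptor of insulin-like growth factor 1, 0.99 ± 0.24. Ezh2, a histone methyltransferase needed for β-cell replication in mice, had -1.02 ± 0.23 and Insr, the insulin receptor, -0.46 ± 0.14.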

How the data were processed

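The deposited table holds whole-number read counts per gene for 22 libraries of sorted mouse β-cells. Per the labels' protocols, cDNA was amplified with the SMARTer Ultra Low kit and sequenced single-end from Nextera XT libraries. STAR 2.7.2b, HTSeq 0.9.1, DESeq2 1.28.1 and GRCm38.p6 are named in the submitters' processing notes. The annotation release and the strand setting of counting are not given in the sources used here, so genes with opposite-strand exon overlap are uncertain.

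Counts were filtered with filterByExpr, scaled by TMM and fitted in edgeR 4.0.16 (R 4.3.3) with 1 mean per group over all 22 libraries (quasi-likelihood, 18 residual degrees of freedom, common biological coefficient of variation 0.373). A call is a Benjamini-Hochberg adjusted p below 0.05 over the 14064 genes tested, of 52327 in the table, and fold changes are log2 with a standard error. The standard error was worked back from the test, as the absolute log2 fold change divided by the square root of the F statistic. It is therefore approximate, above all for genes with few counts. Values in the text are CPM on TMM-scaled libraries. Every mouse has its own number, and libraries correlated at 0.847 to 0.967 with 0 identical pairs. Alternatives were DESeq2 1.42.0 as test and as scaling, limma 3.58.1 voom, no filter, only the 2 groups compared, marker covariates (log2 of the sum plus 1 CPM), leaving out each mouse, and leaving out refed DT mice 13 and 20. The code was tested on simulated data.

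The members, the pathway lists and the marker lists were chosen with earlier results of these data known. All 41 members are accounted for. From the other lists, at most 6 called genes per list and comparison were eligible to be named, by adjusted p, and some of those are given. The values of libraries 13 and 20, of single-mouse omissions and of gene overlaps were also known when the text was written. Reads carry no molecular identifiers. One marker gene is not reported here.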

Additional observations from a re-analysis of the deposited data

Results flagged for a closer look

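A mouse far from the rest of its group was found in 13 of 164 groups (41 members in 4 groups), where chance flags about 1 in 20 groups. Refed DT mouse 13 was far below the others for Ccne2 (0.274 CPM), Mcm2 (2.19 CPM), Mcm4 (3.65 CPM) and Rrm2 (0.0913 CPM), and far above them for Ccna2 (3.93 CPM). Refed DT mouse 14 was at 0 CPM for Bub1b. Refed control mouse 22 was far above the others for Ccnd2 (1200 CPM), refed control mouse 18 far above them for Cdc20 (4.27 CPM), and refed control mouse 12 far below them for Nusap1 (0.211 CPM). Fasted DT mouse 11 was far below the others for Aurkb (0.121 CPM), Foxm1 (0.242 CPM) and Cdc20 (0.485 CPM), and fasted DT mouse 10 for Mcm4 (7.37 CPM).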

How the results depend on the processing

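Of 207 alternatives for counts of called members, 187 stayed within 1.5 times the reported count and 20 moved further. Counts that stayed at 0 are included in the 187. Between refed DT and refed control mice the count was 2 with DESeq2 (0.61% of all genes called) and 2 without refed DT mice 13 and 20 (1.22%). It was 0 to 1 when each mouse was left out, with the 1 found without refed DT mouse 20. Between fasted DT and fasted control mice and for the interaction it was 0 to 0. Between refed and fasted control mice it was 10 with DESeq2 (26.3% of all genes called) and 10 with only those groups fitted (31.2%). It was 9 without refed DT mice 13 and 20 (30.3%), and 4 to 9 when each mouse was left out. In DT mice it was 7 with only those groups fitted and 10 to 18 when each mouse was left out. For DT on average the count was 0 without the filter (0.0285% of all genes called), 2 with DESeq2 (1.32%) and 2 without refed DT mice 13 and 20 (0.86%). It was 0 to 2 when each mouse was left out. For refeeding on average leaving out each mouse gave 19 to 29, the lowest with refed control mouse 12 left out and the highest with refed DT mouse 13 left out. Shares of all genes are not given here for the fits that left out 1 mouse. For the single members that were called, 1155 of 1354 alternatives kept the call and its direction, 199 lost the call and 0 reversed. Members not called were not counted here, and some gained a call, such as Pcna, Ccnb1, Plk1, Bub1 and Ube2c without refed DT mice 13 and 20. No paired analysis was possible because every mouse has its own number. With 26 members under 10 counts in at least 1 library, depth limits how well the size of the mitotic changes is known. The causes of these shifts were not tested.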
